A study of Mus musculus with 50 samples.

Results

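The MHC class II genes and their transcriptional coactivator Ciita were followed through 5 populations of mouse colon cells. The set held 7 genes: H2-Aa, H2-Ab1, H2-Eb1, Cd74, Ciita, H2-DMa and H2-DMb1. Their probe sets were taken where the platform annotation gave the member as the single gene symbol, which left 14 of the 45037 probe sets with values and 6 of the 7 genes, among 18193 gene symbols in all. H2-DMb1 had 0 probe sets of its own and 2 that it shared with H2-DMb2, so no value is given for it. The members were not chosen by a threshold on measured values.

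Class II molecules are pairs of an alpha and a beta chain that display peptides from the endosome and lysosome to CD4+ T cells. The invariant chain, encoded by Cd74, escorts newly made pairs and blocks their groove until H2-DM helps to exchange its remnant for a peptide. Ciita does not bind DNA itself but joins RFX, CREB and NF-Y proteins on the X and Y boxes of class II promoters. B cells, dendritic cells and macrophages make class II constantly, whereas epithelial cells, those of the colon included, are known to do so when interferon gamma induces Ciita.

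The study examined how 2 oncogenes act together in young adult mouse colon (YAMC) cells, a conditionally immortal line from the Immorto-mouse. The mp53/Ras population carried retroviral p53175H, a mutant p53, together with RasV12, an activated Ras. The Ras population carried the Bleo vector and RasV12, the mp53 population carried p53175H and the Neo vector, and the bleo/Neo population carried both empty vectors. YAMC denotes the uninfected parental cells. Every population was polyclonal and had been derived once, so a difference between genotypes cannot be told apart from a difference between derivations. The parental cells and hence all 5 populations carry a temperature-sensitive large T antigen (tsA58) under an interferon gamma-inducible H-2Kb promoter, and they were expanded at 33 °C with 5 U/ml interferon gamma. For the experiment the cytokine was withheld and the cells were held at 39 °C, where large T does not function, for 48 h, and serum was reduced to 0% for a further 24 h. Class II transcripts were therefore measured after interferon gamma had been withdrawn from all populations.

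Polysomal RNA is the mRNA that carries several ribosomes at once. It was measured on Affymetrix Mouse Genome 430 2.0 arrays, 10 per population and 50 in all. Such an intensity reflects transcript abundance and ribosome loading together. In RNA from a mixed culture, fewer expressing cells and less RNA per cell cannot be told apart. The number of arrays, not a read depth, limits the precision, and array medians lay between 86.4 and 86.7 on the linear scale. Levels below are log2 intensities, and differences are log2 differences ± the standard error of the limma fit. A probe set counted as called when its adjusted p was under 0.05 over the 24458 probe sets tested, those above the table median of 6.44 on at least 10 arrays. Of the 14 member probe sets 10 passed that filter, and each of the 6 genes kept at least 1 tested probe set. H2-Aa kept 3 of 4 and H2-Ab1 3 of 3, H2-Eb1 and Cd74 kept their single probe set, Ciita kept 1 of 3 and H2-DMa 1 of 2.

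Some arrays stood apart. Over all tested probe sets 46 of 50 arrays lay closest to the mean of their own population. Of the other 4 arrays, those labelled Ras 10 and YAMC 2 were closest to the mp53 mean, mp53 10 was closest to Ras and mp53 8 to YAMC. Results that involve these populations are given with and without those arrays where the call, the direction or the size moved. The bleo/Neo arrays also stood apart in Y-linked transcripts: Eif2s3y lay between 3.46 and 3.92 on the 10 bleo/Neo arrays, against 7.28 to 9.50 on the other populations' arrays, so every comparison with bleo/Neo also sets apart cells that differ in this mark. Its part in the class II differences was not tested. Of 14 colon epithelial markers, 6 to 8 had a mean above the table median in each population. The simple keratins Krt8 and Krt18 were bright, with means of 12.94 and 12.67 in mp53/Ras and 11.75 and 10.54 in YAMC cells. The adherens junction cadherin Cdh1 (3.95 to 4.31), the microvillus protein villin, Vil1 (5.24 to 5.58), and the intestinal factor Cdx1 (4.56 to 4.77) lay below the table median in every population.

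The promoters of H2-Aa and H2-Eb1 are shown because these chains gave the widest differences and because their upstream sequence holds the box pattern through which Ciita acts. Each run is the 250 bases before the RefSeq transcription start on mouse build GRCm38.p6, read 5′ to 3′ on the strand of the gene. Capitals mark the X-box core GCAAC and, downstream of it, the Y-box core ATTGG. H2-Aa is taken from chr17:34287824-34288073 on the minus strand and H2-Eb1 from chr17:34305617-34305866 on the plus strand.
H2-Aa: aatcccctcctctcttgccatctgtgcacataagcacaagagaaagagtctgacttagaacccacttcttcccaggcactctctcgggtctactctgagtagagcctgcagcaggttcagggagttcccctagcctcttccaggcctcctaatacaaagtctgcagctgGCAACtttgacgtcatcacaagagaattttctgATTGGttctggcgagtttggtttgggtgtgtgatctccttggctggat
H2-Eb1: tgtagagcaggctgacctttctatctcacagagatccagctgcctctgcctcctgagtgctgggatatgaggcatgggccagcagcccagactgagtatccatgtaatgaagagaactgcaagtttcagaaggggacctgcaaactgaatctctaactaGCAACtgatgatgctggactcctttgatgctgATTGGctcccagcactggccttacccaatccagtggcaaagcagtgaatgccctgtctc

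In H2-Aa the GCAAC core began 81 bases and the ATTGG core 48 bases before the start, 33 bases apart. In H2-Eb1 they began 91 and 59 bases before the start, 32 bases apart. The search covered 300 bases, 250 before and 50 after each start, and asked for GCAAC followed 20 to 50 bases later by ATTGG, so the cores could not overlap. Of 32851 RefSeq promoters, 219 (0.667%) held that pair on the strand of the gene and 455 (1.39%) on either strand. ATTGG alone was found in 37.4% and GCAAC alone in 35.2%. Windows of 4 of the 7 members were examined, as 5 sequences, and the H2-DMa and H2-DMb1 windows held no such pair. No window is given for H2-Ab1, Ciita or Cd74, and any Cd74 window was left out of the count. Absence of these letters from a window says nothing about binding there.

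H2-Aa, the alpha chain of the I-A molecule, had the widest range of population means among the 6 brightest probe sets. It was high in mp53 and YAMC cells, low in mp53/Ras and Ras cells, and lowest in bleo/Neo cells. On its brightest probe set (1435290_x_at) the lowest, median and highest levels were 5.67, 6.37 and 6.93 in mp53/Ras, 5.41, 6.42 and 9.49 in Ras, 6.75, 8.73 and 9.36 in mp53, 5.15, 5.34 and 5.55 in bleo/Neo, and 8.2, 8.71 and 9.18 in YAMC cells. The 10 bleo/Neo arrays lay below every mp53/Ras, mp53 and YAMC array and below the table median, where background can hide part of a difference. The mp53/Ras arrays did not overlap YAMC. The wide ranges of Ras and mp53 came from 1 array each: Ras 10 had 9.49, while the next highest Ras array had 6.74, and mp53 10 had 6.75, while the next lowest mp53 array had 8.43. In order of mean level, mp53 (8.65 ± 0.72) and YAMC (8.65 ± 0.30) did not differ beyond their spread, nor did Ras (6.64 ± 1.08) and mp53/Ras (6.41 ± 0.40), while the steps from YAMC to Ras and from mp53/Ras to bleo/Neo (5.34 ± 0.15) passed the test (SD, n = 10 each).

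H2-Ab1, the beta chain that pairs with H2-Aa, followed the same division of populations over a narrower range. On 1450648_s_at the lowest, median and highest levels were 7.48, 7.96 and 8.37 in mp53/Ras, 7.66, 7.96 and 8.77 in Ras, 8.42, 8.93 and 9.23 in mp53, 7.45, 7.89 and 8.27 in bleo/Neo, and 8.51, 8.67 and 9.36 in YAMC cells. The mp53/Ras and bleo/Neo arrays lay wholly below the mp53 and YAMC arrays. The Ras arrays overlapped both high populations, and Ras 10 was again the highest Ras array, its next neighbour being at 8.17. On this probe set no difference among mp53/Ras, Ras and bleo/Neo cells passed the test, and neither did mp53 against YAMC. The dimmer H2-Ab1 probe sets differed in this: 1425477_x_at was called higher in mp53/Ras than in Ras cells (0.29) and in mp53 than in YAMC cells (0.31), and 1451721_a_at was called higher in mp53/Ras than in bleo/Neo cells (0.37).

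H2-Eb1, the beta chain of the I-E molecule, was ordered differently. It was highest in YAMC and lowest in mp53/Ras cells, with Ras, mp53 and bleo/Neo between them. The lowest, median and highest levels were 8.56, 8.91 and 9.39 in mp53/Ras, 9.61, 9.96 and 10.47 in Ras, 9.71, 10.31 and 10.59 in mp53, 8.78, 9.70 and 11.59 in bleo/Neo, and 10.02, 11.22 and 11.95 in YAMC cells. Every mp53/Ras array lay below every Ras, mp53 and YAMC array. The bleo/Neo arrays spread the widest and overlapped each of the other populations. In the order YAMC, mp53, Ras, bleo/Neo and mp53/Ras, the first and the last step passed the test, and the steps from mp53 to Ras and from Ras to bleo/Neo did not.

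Cd74, the invariant chain, split the populations by the presence of Ras. Its levels were lower in both populations with RasV12 than in the 3 without it. The lowest, median and highest levels were 9.81, 10.42 and 10.86 in mp53/Ras, 9.59, 10.18 and 11.70 in Ras, 10.56, 12.00 and 12.62 in mp53, 10.83, 11.66 and 12.13 in bleo/Neo, and 10.42, 11.22 and 12.98 in YAMC cells. All pairs of populations overlapped on at least 1 array. The highest Ras value was that of Ras 10 and the highest YAMC value that of YAMC 2, the next YAMC array being at 11.79. Cd74 did not share the low bleo/Neo level of H2-Aa.

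H2-DMa, the alpha chain of the peptide exchange factor, moved little. Its lowest, median and highest levels were 7.20, 7.47 and 7.74 in mp53/Ras, 6.72, 7.45 and 7.63 in Ras, 6.99, 7.51 and 7.84 in mp53, 6.82, 7.56 and 8.19 in bleo/Neo, and 7.30, 7.72 and 8.36 in YAMC cells. All populations overlapped, and no step between neighbours in the order of means passed. Its other probe set, 1459872_x_at, averaged 5.65 to 5.84 and was not tested.

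Ciita, the coactivator, was near the table median in every population. On 1421210_at the lowest, median and highest levels were 6.15, 6.37 and 6.56 in mp53/Ras, 6.33, 6.46 and 6.61 in Ras, 6.33, 6.54 and 6.73 in mp53, 6.29, 6.65 and 6.76 in bleo/Neo, and 6.15, 6.35 and 6.83 in YAMC cells. Every pair of populations overlapped. The probe set exceeded the table median on 4 mp53/Ras, 5 Ras, 7 mp53, 9 bleo/Neo and 2 YAMC arrays. The other Ciita probe sets, 1421211_a_at with means of 5.16 to 5.33 and 1447075_at with means of 4.26 to 4.53, lay below the table median on all arrays and were not tested.

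**Figure D1:**
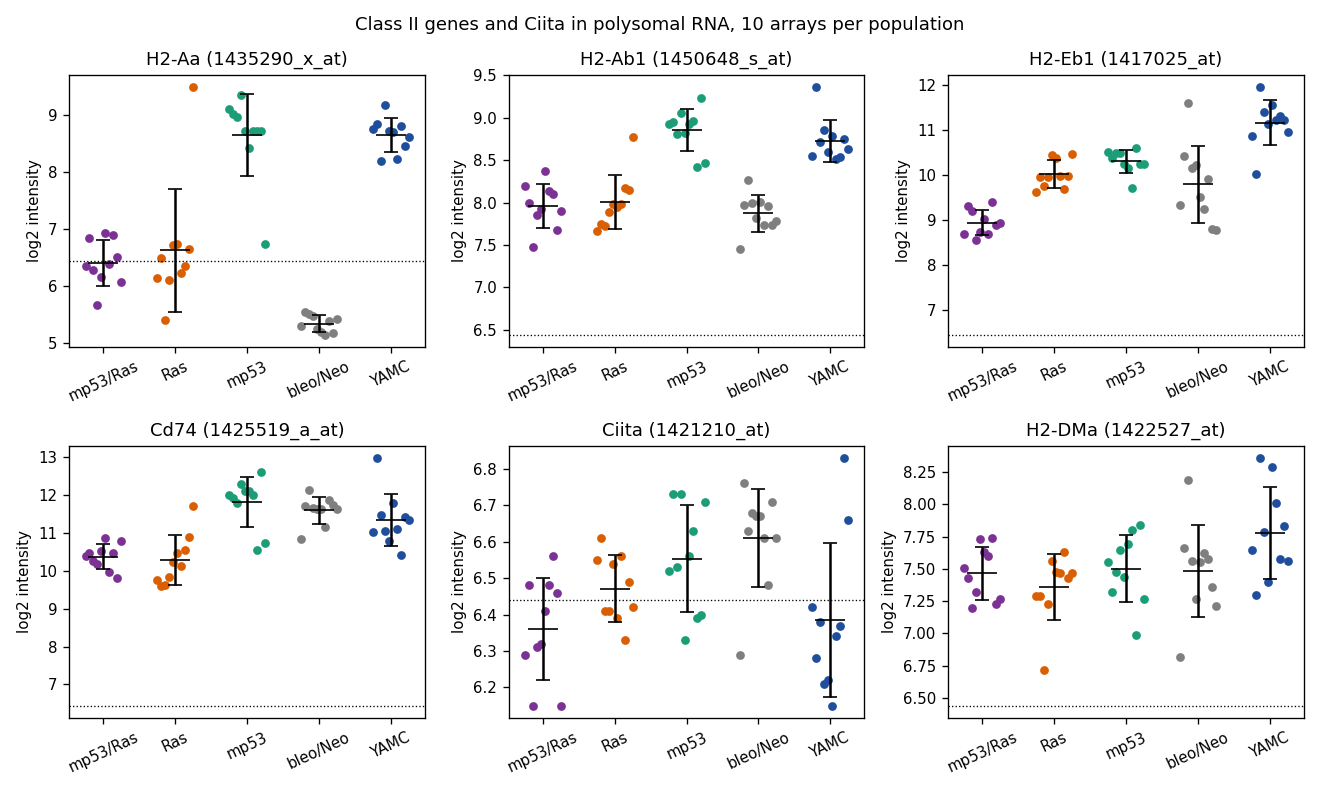
Log2 intensity of the brightest probe set of each of the 6 genes with a value; each point is 1 of 10 arrays per population, black bars are the mean ± SD, and the dotted line is the table median of 6.44. H2-Aa was lowest in bleo/Neo cells (median 5.34) and about as high in mp53 (8.73) as in YAMC cells (8.71), whereas Ciita stayed between 6.15 and 6.83 on all arrays.

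Most of the class II set was lower in mp53/Ras than in the parental cells. H2-Aa fell by 2.24 ± 0.27 (4.73-fold, adjusted p = 7.63e-10) and H2-Eb1 fell by 2.22 ± 0.21 (4.67-fold, adjusted p = 1.74e-12). Cd74 fell by 0.97 ± 0.24 (adjusted p = 0.000649), H2-Ab1 fell by 0.77 ± 0.11 (adjusted p = 1.88e-07) and H2-DMa fell by 0.31 ± 0.13 (adjusted p = 0.035). Ciita differed by −0.02 ± 0.07 (adjusted p = 0.789). Thus 5 of the 6 genes fell and 0 rose, where 25.4% of all tested probe sets fell, 29.2% rose and 54.6% changed in either direction. The median difference of the 6 genes was −0.87, beside 0.03 over all tested probe sets. The fall of H2-Aa depended on the probe set: 1438858_x_at fell by 1.64 ± 0.18 (adjusted p = 3.73e-11), while 1452431_s_at differed by −0.19 ± 0.13 (adjusted p = 0.233). So did that of H2-Ab1, which differed by −0.03 on 1425477_x_at (adjusted p = 0.817). The H2-Aa probe set 1438858_x_at passed the filter through its 10 mp53 and 10 YAMC arrays. It exceeded the table median on 0 mp53/Ras, 1 Ras and 1 bleo/Neo arrays. On 1435290_x_at 4 mp53/Ras, 5 Ras, 10 mp53, 0 bleo/Neo and 10 YAMC arrays did so.

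Ras cells alone also had less of 5 of the 6 genes than YAMC cells and more of none, where 18.8% of all tested probe sets fell, 20.8% rose and 39.6% changed. H2-Aa fell by 2.02 ± 0.27 (4.04-fold, adjusted p = 2.72e-08) and fell by 2.33 ± 0.14 without the arrays Ras 10 and mp53 10. H2-Eb1 fell by 1.14 ± 0.21 (2.20-fold, adjusted p = 2.5e-05), Cd74 fell by 1.06 ± 0.24 (2.09-fold, adjusted p = 0.000386), H2-Ab1 fell by 0.73 ± 0.11 (adjusted p = 1.23e-06) and H2-DMa fell by 0.42 ± 0.13 (adjusted p = 0.00717). Ciita differed by 0.09 ± 0.07 (adjusted p = 0.337). All 3 tested H2-Aa probe sets passed, 1452431_s_at by the least (−0.36 ± 0.13, adjusted p = 0.0247).

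In mp53 cells most of the set was not distinguishable from YAMC. Of the 6 genes 1 fell and 0 rose, where 10.4% of all tested probe sets fell, 11.2% rose and 21.6% changed. The gene was H2-Eb1, which fell by 0.86 ± 0.21 (1.81-fold, adjusted p = 0.0026). H2-Aa differed by 0.00 ± 0.27 (adjusted p = 0.998), H2-Ab1 differed by 0.13 ± 0.11 (adjusted p = 0.456) and Cd74 differed by 0.47 ± 0.24 (adjusted p = 0.158). On the dimmer H2-Ab1 probe set 1425477_x_at mp53 cells were called higher (0.31 ± 0.09, adjusted p = 0.00777). The Cd74 result depended on the 4 arrays that lay nearer another population. Without mp53 10 and Ras 10 Cd74 was 0.59 ± 0.22 higher in mp53 than in YAMC cells (adjusted p = 0.0426). Without mp53 8 and YAMC 2 as well it was 0.95 ± 0.17 higher (adjusted p = 2.41e-05). With those 4 arrays left out H2-Ab1 was also higher, by 0.30 ± 0.09 (adjusted p = 0.0107).

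The vector population, which carried no oncogene, also differed from its parental cells in these genes. H2-Aa fell by 3.31 ± 0.27 (9.90-fold, adjusted p = 1.22e-14), H2-Eb1 fell by 1.37 ± 0.21 (2.58-fold, adjusted p = 1.08e-06) and H2-Ab1 fell by 0.86 ± 0.11 (1.81-fold, adjusted p = 3.51e-08) in bleo/Neo against YAMC cells. Ciita ran the other way on its 1 tested probe set, near the table median, and was 0.23 ± 0.07 higher (adjusted p = 0.00872). Its dimmer, untested probe sets did not share 1 direction. The means in bleo/Neo and YAMC cells were 5.16 and 5.31 on 1421211_a_at and 4.52 and 4.38 on 1447075_at. Cd74 (0.26 ± 0.24, adjusted p = 0.433) and H2-DMa (−0.29 ± 0.13, adjusted p = 0.0683) did not pass. Hence 3 of the 6 genes fell and 1 rose, where 15.9% of all tested probe sets fell, 18.1% rose and 34% changed. All 3 tested H2-Aa probe sets fell (−3.31, −2.72 and −1.59), whereas H2-Ab1 on 1425477_x_at differed by −0.19 and did not pass (adjusted p = 0.0879). The 3 H2-Aa probe sets were read on the same arrays and are not independent. The −2.72 is from 1438858_x_at, which passed the filter through its mp53 and YAMC arrays. Without the 4 arrays that lay nearer another population Cd74 was 0.44 ± 0.16 higher (adjusted p = 0.0275) and H2-DMa fell by 0.35 ± 0.12 (adjusted p = 0.0237).

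Against the vector population H2-Aa was higher in all 3 oncogenic populations. The difference from bleo/Neo passed in mp53 (3.31 ± 0.27, adjusted p = 9.37e-15), Ras (1.29 ± 0.27, adjusted p = 9.62e-05) and mp53/Ras cells (1.07 ± 0.27, adjusted p = 0.00073). Without mp53 10 and Ras 10 the mp53 difference was 3.52 ± 0.14 and the Ras difference 0.97 ± 0.14. These 3 comparisons share the bleo/Neo arrays, and those with YAMC share the YAMC arrays. H2-Ab1 was 0.99 ± 0.11 higher in mp53 cells (adjusted p = 9.08e-10) but did not pass in Ras (0.13) or mp53/Ras cells (0.09).

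Against bleo/Neo, mp53 cells had 2 of the 6 genes higher and 0 lower, H2-Aa and H2-Ab1, where 15.8% of all tested probe sets rose, 16.8% fell and 32.7% changed. H2-Eb1 was at 0.51 ± 0.21 and did not pass (adjusted p = 0.0597). Cd74 (0.22 ± 0.24, adjusted p = 0.532) was called higher without the 4 arrays that lay nearer another population (0.51 ± 0.17, adjusted p = 0.0141). Ras cells had 1 higher, H2-Aa, and 1 lower, Cd74 (−1.32 ± 0.24, adjusted p = 1.35e-05), where 19.8% rose, 19.3% fell and 39.1% changed. In mp53/Ras cells H2-Aa was higher and 3 genes were lower: Cd74 (−1.23 ± 0.24, adjusted p = 2.64e-05), H2-Eb1 (−0.86 ± 0.21, adjusted p = 0.000686) and Ciita (−0.25 ± 0.07, adjusted p = 0.00213). In that comparison 26.8% of all tested probe sets rose, 24.7% fell and 51.5% changed. The untested Ciita probe sets averaged 5.18 in mp53/Ras and 5.16 in bleo/Neo cells (1421211_a_at), and 4.26 and 4.52 (1447075_at). The direction of H2-Aa in both populations with Ras thus depended on which control was used, whereas Cd74 was lower in both populations with Ras against either control.

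**Figure D2:**
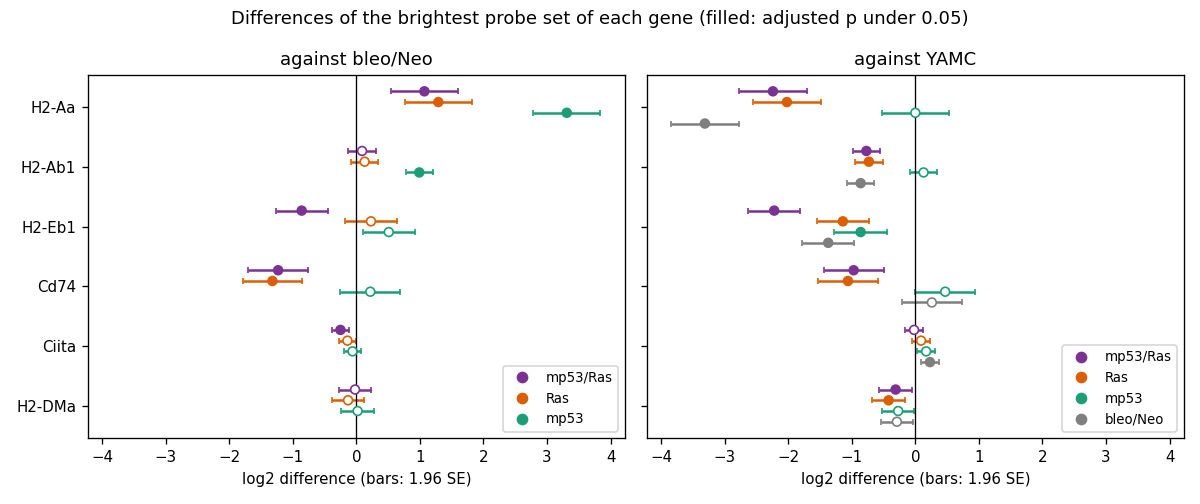
Log2 differences of the brightest probe set of each gene against bleo/Neo (left) and against YAMC (right); points are limma estimates, bars are 1.96 standard errors, filled points have an adjusted p under 0.05, and each population has 10 arrays. H2-Aa lies right of 0 against bleo/Neo in all 3 oncogenic populations (1.07 to 3.31), and left of 0 against YAMC in mp53/Ras (−2.24), Ras (−2.02) and bleo/Neo cells (−3.31).

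Cells with both oncogenes had lower class II levels than mp53 cells. In mp53/Ras against mp53 cells 5 of the 6 genes fell and 0 rose, where 21.3% of all tested probe sets fell, 22.7% rose and 44% changed. H2-Aa fell by 2.24 ± 0.27 (adjusted p = 1.52e-09), Cd74 fell by 1.44 ± 0.24 (2.72-fold, adjusted p = 2.71e-06) and H2-Eb1 fell by 1.37 ± 0.21 (adjusted p = 7.39e-07). H2-Ab1 fell by 0.89 ± 0.11 (adjusted p = 9.83e-09) and Ciita fell by 0.19 ± 0.07 (adjusted p = 0.021). Without mp53 10 and Ras 10 H2-Aa fell by 2.45 ± 0.14 and Cd74 fell by 1.56 ± 0.22, while 1452431_s_at of H2-Aa differed by −0.09 with all arrays and did not pass.

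Between mp53/Ras and Ras cells 1 of the 6 genes fell and 0 rose, where 10.8% of all tested probe sets fell, 9.02% rose and 19.8% changed. H2-Eb1 fell by 1.08 ± 0.21 in mp53/Ras against Ras cells (2.12-fold, adjusted p = 0.000144), and the groups did not overlap. H2-Aa (−0.23), H2-Ab1 (−0.04), Cd74 (0.09), Ciita (−0.11) and H2-DMa (0.11) did not pass. The sign of the H2-Aa and H2-Ab1 differences turned without the arrays Ras 10 and mp53 10, to 0.09 and 0.05, and neither passed. A dimmer H2-Ab1 probe set, 1425477_x_at, was 0.29 ± 0.09 higher in mp53/Ras cells (adjusted p = 0.0136).

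Between the singly transformed populations, Ras cells had less of 3 of the 6 genes than mp53 cells and more of none, where 14.6% of all tested probe sets fell, 15.5% rose and 30.1% changed. H2-Aa fell by 2.02 ± 0.27 (4.05-fold, adjusted p = 4.78e-08), Cd74 fell by 1.54 ± 0.24 (2.90-fold, adjusted p = 1.76e-06) and H2-Ab1 fell by 0.86 ± 0.11 (adjusted p = 6.7e-08). Without mp53 10 and Ras 10 these differences were −2.55, −1.81 and −0.98. On 1452431_s_at H2-Aa differed by −0.26 ± 0.13 and did not pass (adjusted p = 0.131). H2-Eb1 (−0.28, adjusted p = 0.332), H2-DMa (−0.15) and Ciita (−0.08) did not pass.

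**Figure D3:**
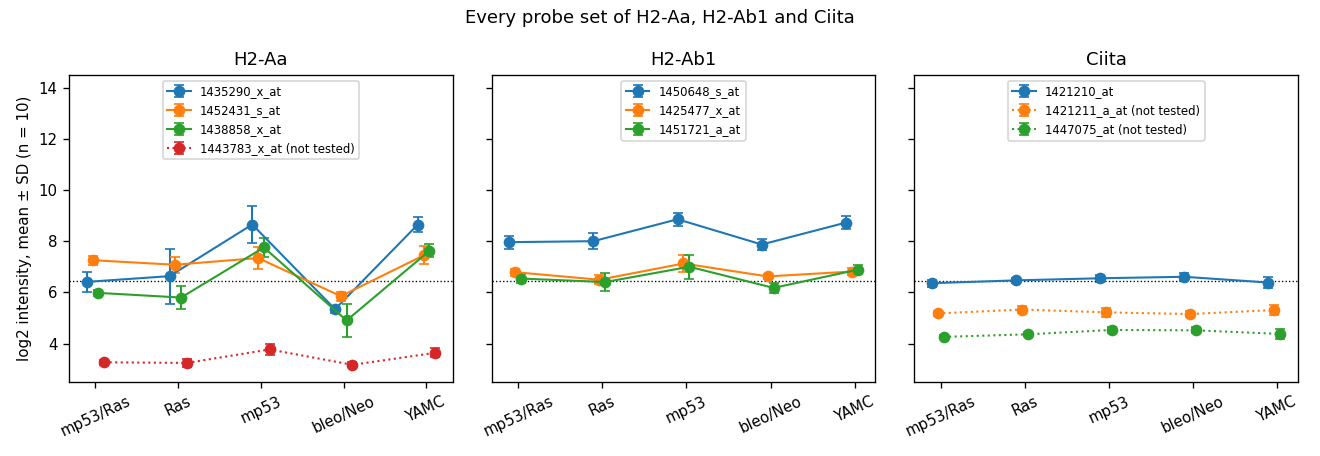
Mean log2 intensity ± SD over 10 arrays per population for each probe set of H2-Aa, H2-Ab1 and Ciita; dotted traces were not tested and the dotted horizontal line is the table median of 6.44. On 3 H2-Aa probe sets bleo/Neo cells were lowest (means 5.34, 5.85 and 4.91), while mp53/Ras was well below YAMC on 1435290_x_at and 1438858_x_at but not on 1452431_s_at (7.26 in mp53/Ras and 7.45 in YAMC).

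The non-additive term asks whether the effect of Ras differed between mp53 and bleo/Neo cells, as mp53/Ras minus mp53 minus Ras plus bleo/Neo. It was negative for the 3 chain genes: −3.53 ± 0.38 for H2-Aa (adjusted p = 1.88e-10), −1.59 ± 0.30 for H2-Eb1 (adjusted p = 6.47e-05) and −1.02 ± 0.16 for H2-Ab1 (adjusted p = 2.88e-06). On 1425477_x_at the H2-Ab1 term was −0.21 ± 0.13 and did not pass (adjusted p = 0.239). H2-Aa was higher in Ras than in bleo/Neo cells (1.29) and lower in mp53/Ras than in mp53 cells (−2.24). Against YAMC cells, which also lack mutant p53, H2-Aa was lower in Ras cells (−2.02). Cd74 (−0.12 ± 0.34), Ciita (−0.05 ± 0.10) and H2-DMa (0.09 ± 0.18) did not pass. The 3 negative calls of 6 stand beside 11.2% of all tested probe sets called negative and 22.1% called at all. All 3 calls were lost with YAMC in place of bleo/Neo, where the term was −0.23 for H2-Aa (adjusted p = 0.765), −0.23 for H2-Eb1 (adjusted p = 0.694) and −0.17 for H2-Ab1 (adjusted p = 0.571).

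Within populations, Cd74 and H2-Aa were compared array by array, with 10 relations in all for Cd74 and Ciita against H2-Aa. In Ras cells Pearson's r was 0.86 and Spearman's rho 0.68 over 10 arrays (permutation p = 0.00247 and 0.0346, adjusted p = 0.0247 and 0.173). Without Ras 3 and Ras 10, the arrays farthest from the median of H2-Aa, r was 0.55 (adjusted p = 0.53), so the relation rested on those arrays. The r of Cd74 with H2-Aa was 0.22 in mp53/Ras, 0.57 in mp53, 0.48 in bleo/Neo and −0.01 in YAMC cells, none with an adjusted permutation p under 0.05. Ciita and H2-Aa had an r of 0.66 and a rho of 0.73 in mp53/Ras cells (permutation p = 0.0402 and 0.0197, adjusted p = 0.201 and 0.173), and r between −0.37 and 0.14 in the other 4 populations.

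**Figure D4:**
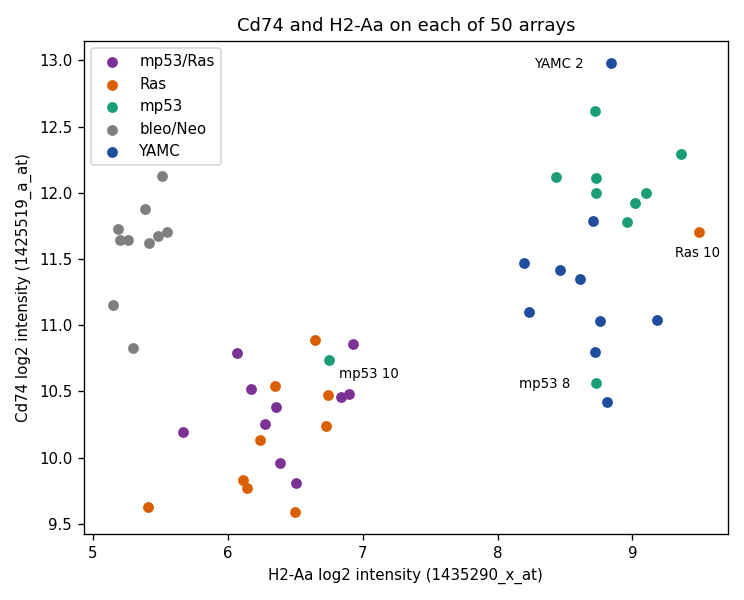
Cd74 log2 intensity against H2-Aa log2 intensity on each of the 50 arrays, coloured by population, with the 4 arrays that lay nearer another population labelled. The bleo/Neo arrays combine the lowest H2-Aa levels (5.15 to 5.55) with high Cd74 (10.83 to 12.13). Ras 10 (H2-Aa 9.49, Cd74 11.70) lies beside the mp53 arrays, above all of them in H2-Aa (highest 9.36). The array mp53 10 (6.75 and 10.74) lies beside the other Ras arrays, at the top of their H2-Aa range.

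No other tested class II gene was called lower in mp53/Ras or bleo/Neo against YAMC cells. Of 6 listed, 5 had a probe set of their own and 3 were tested, of which 1 rose in mp53/Ras and 2 rose in bleo/Neo cells. In these comparisons 29.2% and 18.1% of all tested probe sets rose. H2-DMb2, a beta chain of the peptide exchange factor, was 0.41 ± 0.06 higher in bleo/Neo than in YAMC cells (adjusted p = 6.72e-07), and H2-Oa, the alpha chain of an inhibitor of that factor, was 0.37 ± 0.06 higher (adjusted p = 1.97e-06). In mp53/Ras against YAMC cells H2-Oa was called higher (0.14 ± 0.06, adjusted p = 0.0434), and H2-DMb2 (0.06 ± 0.06, adjusted p = 0.458) did not pass.

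Factors that act with Ciita on class II promoters changed by small amounts. Of 13 listed, 11 were tested. In mp53/Ras against YAMC cells 3 fell and 0 rose, where 25.4% of all tested probe sets fell and 29.2% rose. The 3 were the acetyltransferases Kat2b (−0.56 ± 0.09) and Ep300 (−0.55 ± 0.17) and the RFX subunit Rfx5 (−0.32 ± 0.08). The same 3 genes also fell in bleo/Neo against YAMC cells, Ep300 by 0.47 ± 0.17, Kat2b by 0.42 ± 0.09 and Rfx5 by 0.29 ± 0.08. They were among 5 that fell and 1 that rose there, where 15.9% of all tested probe sets fell and 18.1% rose. The medians of the list were 0.01 and −0.14, beside 0.03 and 0.02 over all tested probe sets.

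Of 12 listed genes of the interferon gamma receptor and its signalling path, 9 were tested. In each of Ras against bleo/Neo, mp53/Ras against bleo/Neo, mp53/Ras against mp53 and Ras against mp53 cells 4 rose and 1 fell. In that order, 19.8%, 26.8%, 22.7% and 15.5% of all tested probe sets rose, and 19.3%, 24.7%, 21.3% and 14.6% fell. In mp53/Ras against YAMC cells 2 rose and 1 fell, beside 29.2% and 25.4% of all tested probe sets. Socs3, a feedback inhibitor of JAK signalling, rose by 1.31 ± 0.15 (adjusted p = 2.64e-10), and Irf2, which binds interferon response elements, fell by 0.77 ± 0.12 (adjusted p = 7.93e-07). In bleo/Neo against YAMC cells 1 rose, Socs3 by 1.05 ± 0.15 (adjusted p = 1.37e-07), and 0 fell, where 18.1% of all tested probe sets rose and 15.9% fell.

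Of 19 tested targets of interferon gamma outside class II, 14 fell and 1 rose in mp53/Ras against YAMC cells. There 25.4% of all tested probe sets fell and 29.2% rose. In bleo/Neo against YAMC cells 8 fell and 3 rose, where 15.9% fell and 18.1% rose. The medians were −0.47 and −0.11, beside 0.03 and 0.02 over all tested probe sets. Icam1, an adhesion molecule, stood at −2.84 ± 0.36 in mp53/Ras, −3.25 ± 0.36 in mp53 and −1.99 ± 0.36 in bleo/Neo cells against YAMC, each called. Gbp2, a guanylate-binding protein, fell by 0.93 ± 0.16 in mp53/Ras cells and fell by 1.33 ± 0.16 in bleo/Neo cells. The chemokine gene Cxcl10 rose by 1.2 ± 0.2 in mp53/Ras and fell by 1.29 ± 0.20 in bleo/Neo cells. With bleo/Neo as baseline, the non-additive term was negative for Gbp2 (−1.31 ± 0.22, adjusted p = 8.82e-06) and Cxcl10 (−0.9 ± 0.29, adjusted p = 0.0181). It did not pass for Icam1 (0.14 ± 0.51, adjusted p = 0.878). Like H2-Aa, Gbp2 and Cxcl10 had their lowest means in bleo/Neo cells (9.53 and 8.83), and their terms with YAMC as baseline are not given. Gbp2 differed by −0.59 ± 0.16 in Ras against YAMC and by −0.57 ± 0.16 in mp53/Ras against mp53 cells. For Cxcl10 these differences were 0.96 ± 0.20 and 1.35 ± 0.20. The negative terms of both genes were thus seen only with the bleo/Neo baseline.

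Genes that prepare peptides and invariant chain in the lysosome fell in part. Of 11 tested, 7 fell and 2 rose in mp53/Ras against YAMC cells, where 25.4% of all tested probe sets fell and 29.2% rose. The median difference of the list was −0.37, beside 0.03 over all tested probe sets. Ifi30, a thiol reductase that unfolds antigen, fell by 0.78 ± 0.10 (adjusted p = 3.06e-09) and Ctsl, a cathepsin that cleaves invariant chain in the thymus, fell by 0.37 ± 0.09 (adjusted p = 0.000589). In bleo/Neo against YAMC cells 2 fell and 2 rose, where 15.9% of all tested probe sets fell and 18.1% rose. Ifi30 was 0.41 ± 0.10 higher there (adjusted p = 0.000916). Of the genes whose products bind Cd74 or its complex, 2 of 3 tested rose and 0 fell in mp53/Ras against YAMC cells. Over all tested probe sets 29.2% rose and 25.4% fell. Cd44 rose by 0.70 ± 0.11 and Mif, the cytokine ligand of Cd74, by 0.18 ± 0.05.

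**Figure D5:**
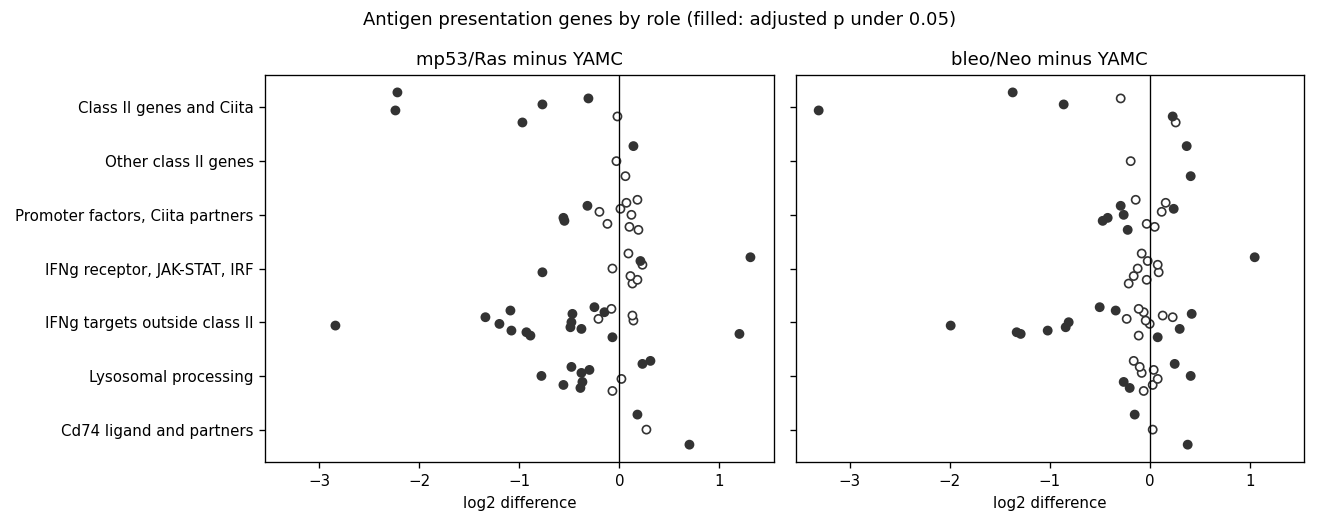
Log2 difference of each tested gene of 7 antigen presentation lists in mp53/Ras minus YAMC (left) and bleo/Neo minus YAMC (right); each point is 1 gene through its brightest probe set, filled where the adjusted p is under 0.05. In mp53/Ras cells 14 of 19 interferon gamma targets outside class II lie below 0 and are filled, where 25.4% of all tested probe sets fell. The lowest points in bleo/Neo cells are H2-Aa (−3.31) and Icam1 (−1.99).

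Markers of other cells were read beside these results. Of 20 markers of immune cells that present antigen, 19 had a probe set and 7 to 9 of them had a mean above the table median in each population. Their summed linear intensity ran from 1848 to 2157 in mp53/Ras, 1886 to 2902 in Ras, 1783 to 2732 in mp53, 2129 to 3935 in bleo/Neo and 1975 to 3213 in YAMC cells. The pan-leukocyte gene Ptprc (means 5.39 to 5.54), the B cell genes Cd79a, Cd79b and Ms4a1 (5.25 to 5.95), and the myeloid genes Itgam, Adgre1 and Tyrobp (4.38 to 5.80) lay below the table median in all 5 populations. By contrast 7 markers of the list had means above the table median in every population: Csf1r (7.53 to 8.02), Cd80 (7.48 to 8.37), Cd3e (7.13 to 7.42), Flt3 (6.85 to 7.05), Laptm5 (6.74 to 6.96), Lyz2 (6.66 to 6.80) and Cd68. The lysosomal marker Cd68 had means of 8.41 in mp53/Ras, 9.60 in Ras, 8.66 in mp53, 9.96 in bleo/Neo and 9.40 in YAMC cells. Fibroblast and smooth muscle markers were also called in many of these comparisons. Of 9 tested, 8 fell and 0 rose in mp53/Ras against YAMC, and 8 fell and 0 rose in Ras against YAMC. In bleo/Neo against YAMC 7 fell and 1 rose, and in mp53 against YAMC 1 fell and 2 rose. In that order, 25.4%, 18.8%, 15.9% and 10.4% of all tested probe sets fell, and 29.2%, 20.8%, 18.1% and 11.2% rose. Against bleo/Neo, 3 fell and 5 rose in mp53/Ras, 3 fell and 4 rose in Ras and 1 fell and 6 rose in mp53 cells. There 24.7%, 19.3% and 16.8% of all tested probe sets fell, and 26.8%, 19.8% and 15.8% rose. Dcn, a matrix proteoglycan, was the 1 that rose in bleo/Neo against YAMC cells (mean 12.92, against 11.47). The 7 that fell there went the same way as H2-Aa. Among the lower means were those of Col1a2 (8.68, against 13.3 in YAMC) and Myl9 (6.74, against 12.22). The summed intensity of the 12 listed ran from 29201 to 38056 in mp53/Ras, 21223 to 49949 in Ras, 28517 to 73260 in mp53, 27654 to 44273 in bleo/Neo and 48605 to 69303 in YAMC cells. Their part in the class II differences was not tested.

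The 8 genes whose levels over the 50 arrays were most like those of H2-Aa among 12877 genes were Rasgrp3, Serping1, Plagl1, Gstt1, Plcb4, Rbm20, Actg2 and Arhgef25. Pearson's r was 0.977 for Rasgrp3, which activates Ras proteins, 0.952 for Serping1, the C1 inhibitor of complement, and 0.947 for Plagl1, an imprinted zinc-finger factor. The other 5 had r between 0.920 and 0.939. All points share the 5 population means, so these values describe a pattern across populations. Rasgrp3 averaged 7.42 in mp53/Ras, 7.80 in Ras, 10.28 in mp53, 6.42 in bleo/Neo and 10.10 in YAMC cells, the same division as H2-Aa. Actg2, an enteric smooth muscle actin, belongs to the fibroblast and smooth muscle list. The 5 genes most like Ciita had lower r, from 0.708 for 1500009C09Rik and 0.693 for Fbxl20, an F-box protein, down to 0.656 for Gpsm1, with Zfp324 and Caprin2 between them.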

How the data were processed

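Polysomal RNA from 5 populations (10 arrays each) was measured on Affymetrix Mouse Genome 430 2.0 arrays. The values deposited by the authors are linear intensities, 1 for each probe set on each array. Per the submitters' processing notes RMA was used, its version is not stated, and other steps are not given in the sources used here. Of 45101 probe sets, 64 were blank. The nearly equal array medians show values already normalised between arrays, so none was added. The table holds no detection calls or scan dates, so batches could not be examined by date. Only arrays with the same replicate number were compared across populations, and that result is given at the end. The labels do not say whether replicates were separate cultures, so p-values reflect only the spread among these samples, which may be technical.

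Intensities were transformed to log2 with no offset, the lowest being 3.04. Probe sets above the table median (6.44) on at least 10 arrays, 24458 in all, entered a limma fit (version 3.58.1, R 4.3.3) over all 50 arrays with 1 coefficient per population, intensity-trend moderation and Benjamini-Hochberg adjustment, for 10 pairwise comparisons and the non-additive term. The fit was tested on simulated data. Within-population correlations used 100000 permutations and were two-sided. Symbols came from the platform annotation: 34945 probe sets had 1 symbol, 932 several and 9160 none. Suffixes x and s mark probe sets whose probes can match more than 1 transcript, so probe sets of H2-Aa and H2-Ab1 are given separately.

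Each gene is named through its probe set with the highest mean, and other probe sets where they differ. From each pathway list the text names up to 3 genes with the largest difference among those called in bleo/Neo minus YAMC, with counts for the rest, and the 8 and 5 genes most like H2-Aa and Ciita. Irf2 and the Y-linked gene were named after their values were seen, and single markers are named to check cell types. The members and lists were chosen with earlier results of these data known. Promoter sequences and starts are from RefSeq on GRCm38.p6, and no coordinates are given for probe sets. Alternatives were other filters, an offset of 16 before log2, median-centred arrays, no intensity trend, fits on only the populations compared, 1 probe set per gene symbol, other probe sets, a replicate block, YAMC as baseline, and fits without arrays that lay nearer another population.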

Additional observations from a re-analysis of the deposited data

Results flagged for a closer look

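In 14 of 50 sets of 10 arrays (10 tested probe sets in 5 populations) the highest or lowest array lay farther from its neighbour than Dixon's 95% limit allows, which chance gives in about 1 of 20 sets. For H2-Aa these were Ras 10 at 9.49 and mp53 10 at 6.75 on 1435290_x_at. On 1452431_s_at they were Ras 10 at 7.85, bleo/Neo 10 at 5.45 and YAMC 4 at 8.26, and on 1438858_x_at Ras 10 at 7.0, mp53 10 at 6.86 and bleo/Neo 1 at 6.75. For H2-Ab1 they were Ras 10 at 8.77 and YAMC 2 at 9.36 on 1450648_s_at and mp53 8 at 6.30 on 1425477_x_at. The others were mp53 7 at 9.71 for H2-Eb1, YAMC 2 at 12.98 for Cd74 and Ras 3 at 6.72 for H2-DMa. Of the 14, 9 were on the 4 arrays that lay nearer another population.

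The effect of Ras in mp53 cells minus its effect in bleo/Neo cells passed limma's test for H2-Aa (−3.53), H2-Ab1 (−1.02) and H2-Eb1 (−1.59). These calls were lost with YAMC in place of bleo/Neo.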

How the results depend on the processing

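Counts over all probe sets depended on how many were tested. With 1 probe set per gene symbol the called counts were 4813 for bleo/Neo minus YAMC, 4562, 5301 and 7032 for mp53, Ras and mp53/Ras minus bleo/Neo, 2952, 5505 and 7444 for mp53, Ras and mp53/Ras minus YAMC, 6071 for mp53/Ras minus mp53, 2779 for mp53/Ras minus Ras, 4243 for Ras minus mp53 and 3073 for the non-additive term. With no filter on low values they were, in the same order, 15392, 15137, 17221, 20818, 11832, 17271, 22274, 18381, 11312, 14002 and 12326. A stricter filter gave 3452 for mp53 minus YAMC, 3046 for mp53/Ras minus Ras and 3291 for the non-additive term. YAMC as baseline gave 2889 non-additive calls. Reversed values, none called unless said, were H2-Aa in mp53 minus YAMC on 1452431_s_at (−0.10), H2-Aa in mp53/Ras minus Ras without mp53 10 and Ras 10 or without all 4 arrays that lay nearer another population (0.09 each) and on 1438858_x_at and 1452431_s_at (0.18 each), H2-Ab1 in Ras minus bleo/Neo on 1425477_x_at (−0.13), and H2-Ab1 in mp53/Ras minus Ras without those arrays (0.05 each), on 1451721_a_at (0.14) and on 1425477_x_at (0.29, called). On 1425477_x_at H2-Ab1 was called in mp53 minus YAMC (0.31), and its calls in bleo/Neo minus YAMC (−0.19), mp53/Ras minus YAMC (−0.03) and the non-additive term (−0.21) were lost, and on 1451721_a_at H2-Ab1 was called in mp53/Ras minus bleo/Neo (0.37). H2-Aa on 1452431_s_at lost its call in Ras minus mp53 (−0.26). Without the 4 arrays Cd74 was called in mp53 minus bleo/Neo (0.51, adjusted p = 0.0141). Without the 2 arrays farthest from the median of H2-Aa, r of Cd74 was −0.05 in mp53, −0.17 in mp53/Ras and 0.55 in Ras, and r of Ciita was −0.06 in bleo/Neo, 0.29 in mp53 and 0.02 in Ras; rho was 0.68 for Cd74 in Ras and 0.22 for Ciita in mp53. The cause of these changes was not tested. Same-numbered arrays correlated by −0.36 to 0.75 (median 0.20, 68 of 100 pairs over 0.1). Differently numbered arrays had a median of −0.02, and 25 of 50 arrays correlated best with one of their own number, a hint of pairing from the data, not the design. Since not every pair was over 0.1, the numbers were not taken as pairs; with a replicate block H2-Eb1 in mp53 minus bleo/Neo was called (0.51, adjusted p = 0.0453), no other member call changed and no count moved by over 1.5 times. Every call of a member's brightest probe set was the same with 16 added before log2, median-centred arrays, no intensity trend, no filter, or fits on only the populations compared. Ciita was not tested under the stricter filter. Arrays at or below the table median limit H2-Aa in bleo/Neo and Ciita throughout.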
